A study of Mus musculus with 6 samples.

Results

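The genes described here were 10 rapidly induced, or early, genes: the zinc finger transcription factors Egr1, Egr2 and Egr3, the orphan nuclear receptors Nr4a1, Nr4a2 and Nr4a3, the cAMP-responsive regulator Crem, and the early genes Ier2, Ier3 and Btg2. They were chosen by symbol from the 43472 gene symbols of the count data, with no threshold on their values but with earlier results of these data known. All 10 passed the filter on low counts that left 16152 genes for testing. RNA-seq was done on whole intervertebral discs (IVDs) of the thoracic and lumbar spine of C57B6/J mice at postnatal day 20, in 3 mutant and 3 control pools, each holding the discs of 2 to 3 mice. Mutant mice were Col2Cre;Adgrg6 f/f, in which Cre recombinase under the type II collagen (Col2) promoter deletes the floxed adhesion G protein-coupled receptor gene Adgrg6 (also called Gpr126) in cartilage-forming lineages of the disc and spine. Controls were littermates without Cre that are wild type by their genotype label, although their titles read Col2Cre control, so whether a control pool carried the Cre transgene is not settled by the labels. No sex was given. The question put to these genes was whether they differed between mutant and control IVDs.

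Early genes are transcribed within minutes of a stimulus, without new protein synthesis, and their transcripts are short-lived. One route to them runs through G protein-coupled receptors, adenylyl cyclase and cAMP, which frees the catalytic subunits of protein kinase A (PKA) to phosphorylate CREB on cAMP response elements (CREs). Another runs through MAP kinases and the serum response factor SRF with its ETS partners on CArG boxes, which is the better known route to the Egr genes. In cartilage and discs these genes are known to respond to mechanical load, growth factors and prostaglandins, and Adgrg6 is known to couple to cAMP in Schwann cells.

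The sequences ahead of 3 of the genes are shown because these were the only members whose mutant and control libraries did not overlap, with Btg2 and Nr4a1 higher and Nr4a2 lower in every mutant library. Each is the 250 bases upstream of a RefSeq transcription start on GRCm38.p6, read 5′ to 3′ on the gene's strand. Btg2 lies on the minus strand, with its window at chr1:134079156-134079405. For Nr4a1 the window is chr15:101266596-101266845 on the plus strand, ahead of a start inside the gene's annotated span. Nr4a2 is a minus strand gene with its window at chr2:57124004-57124253. Matches to a full CRE (TGACGTCA), a partial CRE (TGACG) or an EGR element (GCGNGGGCG) on either strand are in capitals.
Btg2: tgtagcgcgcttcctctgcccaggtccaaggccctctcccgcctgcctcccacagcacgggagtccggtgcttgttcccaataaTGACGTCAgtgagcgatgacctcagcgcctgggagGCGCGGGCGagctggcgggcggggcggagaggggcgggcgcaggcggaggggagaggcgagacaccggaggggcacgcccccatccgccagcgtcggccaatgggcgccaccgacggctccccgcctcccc
Nr4a1: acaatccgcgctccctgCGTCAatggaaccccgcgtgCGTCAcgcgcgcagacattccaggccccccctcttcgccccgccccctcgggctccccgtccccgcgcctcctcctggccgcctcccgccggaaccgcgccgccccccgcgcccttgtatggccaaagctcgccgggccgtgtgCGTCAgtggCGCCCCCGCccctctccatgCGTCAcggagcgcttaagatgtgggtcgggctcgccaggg
Nr4a2: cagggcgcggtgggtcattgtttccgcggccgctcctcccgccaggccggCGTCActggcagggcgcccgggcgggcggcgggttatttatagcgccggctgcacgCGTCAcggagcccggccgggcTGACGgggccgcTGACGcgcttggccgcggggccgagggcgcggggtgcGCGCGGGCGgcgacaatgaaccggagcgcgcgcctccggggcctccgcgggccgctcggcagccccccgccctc
The Btg2 window held 1 full CRE, 166 bases upstream of the start, which also counts as 2 partial CREs, and 1 EGR element at 131 bases. The Nr4a1 window held 4 partial CREs, at 233, 213, 69 and 40 bases upstream, and 1 EGR element at 60 bases. In the Nr4a2 window 4 partial CREs lay at 200, 144, 123 and 111 bases, with 1 EGR element at 74 bases.

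For 6 of the 10 members, the 3 shown and Nr4a3, Egr2 and Ier3, a RefSeq window was at hand, and Egr1, Egr3, Crem and Ier2 had none. Nr4a3 had 4 partial CREs, Egr2 had a CArG box in 4 of the windows of its 5 starts with 2 partial CREs in 3 of them (these 3 overlap and share the same CArG box and partial CREs), and Ier3 had no match to any of the 5 motifs searched. No member window matched the monomer element of the NR4A receptors (AAAGGTCA). Among 32851 mouse windows of the same length, 1.55% held a full CRE, 17.8% a partial CRE, 4.70% an EGR element, 1.47% a CArG box and 1.34% an NR4A element. A match describes letters in a window and does not show that a factor binds there.

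Counts on genes were 9061491 to 12017008 per library, which was 40.4% to 44.2% of the reads entering the count, and mutant 1 had the highest share of reads not aligned, 18.9% against at most 15.2% in the other libraries. Values are CPM, reads per 1e6 counts on genes, scaled by TMM factors, which ran from 0.8924 in mutant 1 to 1.149 in control 3. The targeted gene, listed as Gpr126, was at 124, 108 and 94.3 CPM in control 1, 2 and 3 and at 138, 124 and 106 CPM in mutant 1, 2 and 3, a log2 fold change of 0.17 ± 0.18 (SE, adjusted p = 0.849, edgeR). Since reads were counted over all exons of Gpr126, this level is no check of the deletion. The tissue label was met by the 8 cartilage markers, whose summed level was 78793 to 134306 CPM in control and 113657 to 140171 CPM in mutant libraries, with none at 0 in any library.

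Of the 10 early genes, 7 had a positive and 3 a negative log2 fold change, with a median of 0.55 against -0.01 over all genes tested. The study's methods set an unadjusted p under 0.05 together with a log2 fold change beyond 1 in either direction. At that p threshold alone, Egr1, Nr4a1, Ier2, Ier3 and Btg2 were higher in mutant IVDs, only Egr1 of them also past the fold limit, and no member was lower. The background was 2.89% of tested genes called higher (467 of 16152) and 4.32% called lower (697). Since the members were chosen with earlier results known, these shares are set beside them as a description only. After Benjamini-Hochberg adjustment over all genes, 0 members passed in edgeR, with adjusted p from 0.676 to 0.910, and 1 gene in all, 0.00619% of those tested, did. By DESeq2, too, 0 members passed after adjustment, and 4 were called without it. Beside them 482 genes were higher and 745 lower of the 16152 entered, not all of which DESeq2 gave a p. In what follows, called means an unadjusted p under 0.05, in edgeR unless another tool is named. Adjusted p are from edgeR with all 6 libraries, TMM and the filter on low counts unless another setting is named, and an exact permutation test of 3 against 3 libraries cannot go below 0.10. All 3 mutant libraries lay above all 3 controls for Btg2 and Nr4a1, a pattern seen in 5.45% of tested genes, and below all 3 for Nr4a2, as in 5.96%.

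**Figure D1:**
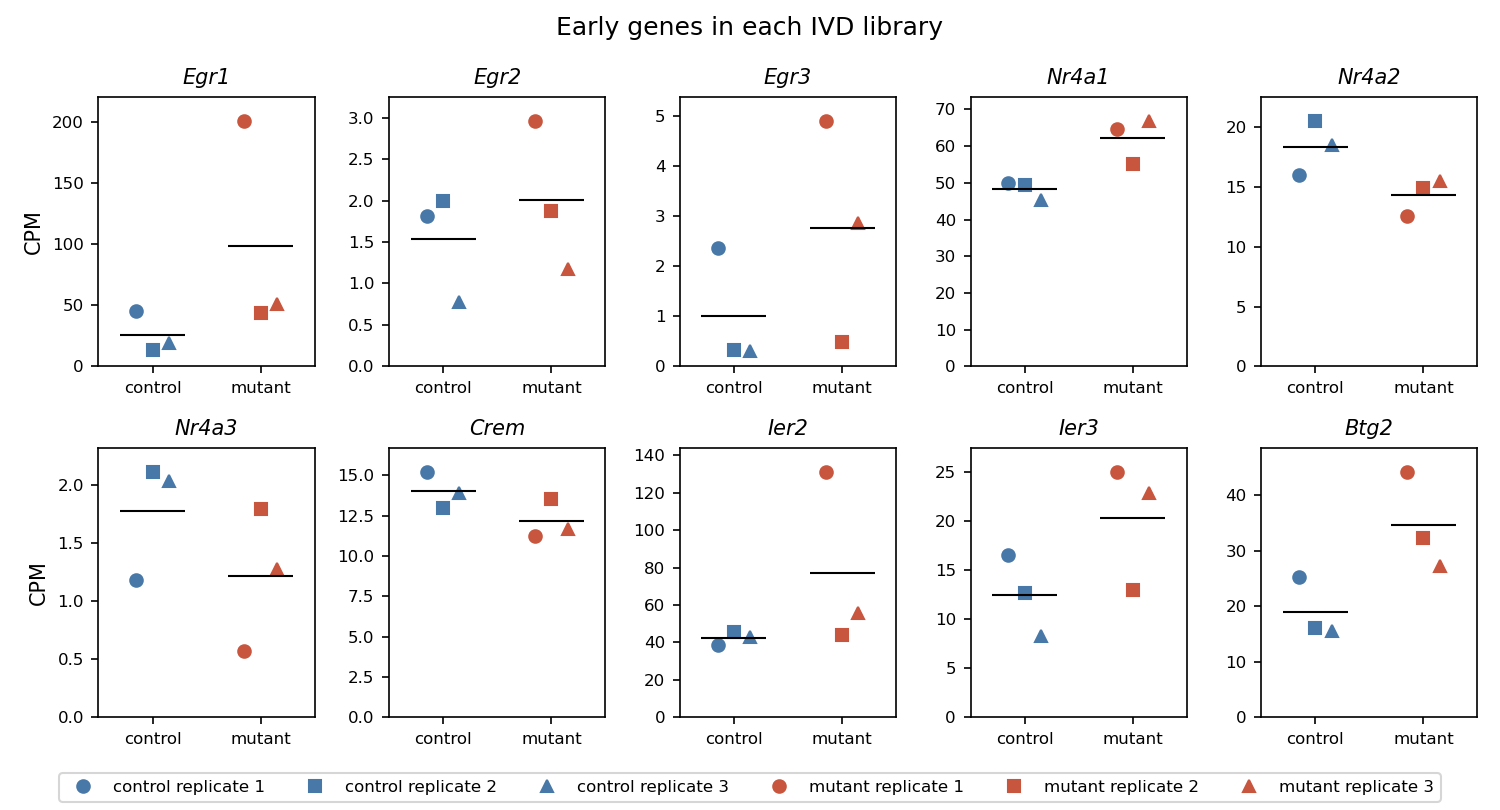
TMM-scaled CPM of the 10 early genes, 1 point per library with shape marking the replicate number, and lines at the group means; each axis starts at 0 and has its own scale. Groups do not overlap for Btg2, Nr4a1 and Nr4a2, while the mutant means of Egr1 and Ier2 are drawn up by mutant 1, at 201 and 131 CPM.

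Members differed widely in level in control IVDs. Per kilobase of exon, Ier2 was the most abundant, at a mean of 27.9 CPM per kb with a range of 25.3 to 30.0 over 3 control libraries. Nr4a1 followed, without overlap, at 13.8, Ier3 at 11.1, Btg2 at 6.91, Egr1 at 5.72 and Nr4a2 at 4.53 CPM per kb. Each of these 5 overlapped its neighbour in that order in range, so the order of neighbours is not resolved. Nr4a1, at 12.9 to 14.3 CPM per kb, did lie wholly above Btg2, Egr1 and Nr4a2. Ier3 (from 7.33) and Btg2 (from 5.64) lay wholly above Nr4a2 (up to 5.06). Crem, at 2.38 CPM per kb, lay below Nr4a2 and above the 3 scarce genes without overlap, and Egr2, Nr4a3 and Egr3, at 0.451, 0.296 and 0.227 CPM per kb, overlapped one another.

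Egr1 encodes a zinc finger factor that binds GC-rich EGR elements and is induced by growth factors and load, including in tendon. It was at 45.1, 13.1 and 18.8 CPM in control 1, 2 and 3 and at 201, 43.8 and 51.1 CPM in mutant 1, 2 and 3. Mutant 1 stood far above the rest, and mutant 2 lay just below control 1, so the groups overlapped. The means were 25.7 ± 17.0 and 98.5 ± 88.4 CPM (SD, n = 3 each), and the log2 fold change was 1.94 ± 0.60 (SE, adjusted p = 0.676, edgeR). Without mutant 1 it was 0.92 and no longer called, and without control 1 it was 2.64. With both libraries numbered 1 left out it was 1.61 with an adjusted p of 0.0407, and without the filter on low counts the adjusted p was 5.19e-05. Egr1 was called in 12 of the 13 alternatives run, and the adjusted p ran from 5.19e-05 to 0.999.

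Egr2 and Egr3 are related zinc finger factors, Egr2 being known as a driver of myelination in Schwann cells and Egr3 for roles in muscle spindles and lymphocytes. Egr2 was at 1.82, 2.00 and 0.782 CPM in control and at 2.96, 1.88 and 1.17 CPM in mutant libraries, from 10 to 26 counts a library. Its groups overlapped, with the lowest value in control 3, and the log2 fold change of 0.39 ± 0.62 (SE, adjusted p = 0.910, edgeR) was not called. Egr3 also rested on few counts, less evenly spread, with 22, 3 and 4 in control 1, 2 and 3 and 43, 6 and 27 in mutant 1, 2 and 3. In CPM these were 2.35, 0.333 and 0.313 against 4.89, 0.490 and 2.87, so that mutant 1, mutant 3 and control 1 were high and the other libraries low. The exact 95% Poisson interval of Egr3 in mutant 2, 0.180 to 1.07 CPM, covered its levels in control 2 and control 3, and covers counting error only. The log2 fold change of Egr3 was 1.46 ± 0.97 (SE, adjusted p = 0.780, edgeR), and of the 12 alternatives in which it was tested it was called in 1, without control 1, at 3.05.

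Nr4a1, Nr4a2 and Nr4a3 encode orphan nuclear receptors whose activity is set mainly by how much of them is made. Nr4a1 was at 50.1, 49.5 and 45.4 CPM in control 1, 2 and 3 and at 64.8, 55.2 and 66.8 CPM in mutant 1, 2 and 3. Every mutant library was above every control, and the controls differed little. The means were 48.3 ± 2.55 and 62.2 ± 6.22 CPM (SD, n = 3 each), a log2 fold change of 0.36 ± 0.16 (SE, adjusted p = 0.690, edgeR). The call was held in 3 of 13 alternatives. It was lost at 0.25 with libraries scaled by total counts only, without the filter on low counts (0.38), with a block on the replicate number (0.36), by DESeq2 at 0.37, with both libraries numbered 1 left out (0.41), and without control 1 (0.41), mutant 1 (0.37), control 2 (0.38), control 3 (0.33) or mutant 3 (0.31).

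Nr4a2 went the other way. It was at 16.1, 20.5 and 18.5 CPM in control 1, 2 and 3 and at 12.6, 14.9 and 15.5 CPM in mutant 1, 2 and 3. All mutant libraries were below all controls, with mutant 3 and control 1 the nearest pair. The means were 18.4 ± 2.25 and 14.4 ± 1.52 CPM (SD, n = 3 each), and the log2 fold change of -0.35 ± 0.20 (SE, adjusted p = 0.743, edgeR) was not called, nor was it in any of the 13 alternatives, where it ran from -0.47 to -0.23. Nr4a3 was at 1.18, 2.11 and 2.03 CPM in control and at 0.569, 1.80 and 1.27 CPM in mutant libraries, from 5 to 26 counts. Mutant 1 was the lowest, the groups overlapped, and the log2 fold change was -0.53 ± 0.63 (SE, adjusted p = 0.859, edgeR). Nr4a2 and Nr4a3 were called in 0 of 13 alternatives by any of edgeR, DESeq2 and limma-voom, and whether the receptors differed from one another was not tested.

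Crem encodes activators and repressors that bind CREs, among them the early repressor ICER made from an internal promoter, which the gene-level counts do not separate. Crem was at 15.2, 13.0 and 13.9 CPM in control 1, 2 and 3 and at 11.3, 13.5 and 11.7 CPM in mutant 1, 2 and 3. Mutant 2 lay within the control range and the other mutant libraries below it. The log2 fold change was -0.20 ± 0.21 (SE, adjusted p = 0.843, edgeR), with a range of -0.31 to -0.04 over the alternatives. The Crem locus is overlapped by Gm6225 on the opposite strand, and the strand setting of the count is not given in the sources used here, so reads from the overlap may not be told apart.

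Ier2 encodes a nuclear protein induced by growth factors. It was at 38.5, 45.6 and 43.1 CPM in control 1, 2 and 3 and at 131, 43.8 and 55.9 CPM in mutant 1, 2 and 3. Mutant 1 was well above all other libraries, mutant 2 lay among the controls, and mutant 3 was somewhat above them. The means were 42.4 ± 3.60 and 76.9 ± 47.2 CPM (SD, n = 3 each), and the log2 fold change was 0.86 ± 0.35 (SE, adjusted p = 0.676, edgeR). It was called in 5 of 13 alternatives, and the call was lost without mutant 1 (0.27), control 1 (0.81), control 2 (0.90) or control 3 (0.87), with both libraries numbered 1 left out (0.22), with a block on the replicate number (0.69), by limma-voom (0.65), and with total counts only (0.70).

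Ier3 encodes a stress-induced regulator of cell survival and MAP kinase signalling. It was at 16.6, 12.7 and 8.29 CPM in control 1, 2 and 3 and at 25, 13.0 and 22.9 CPM in mutant 1, 2 and 3. Mutant 1 and mutant 3 were above all controls and mutant 2 was within their range. The means were 12.5 ± 4.15 and 20.3 ± 6.45 CPM (SD, n = 3 each), a log2 fold change of 0.70 ± 0.31 (SE, adjusted p = 0.691, edgeR). It was called in 8 of 13 alternatives, and the call was lost without mutant 1 (0.56), mutant 3 (0.60), control 2 (0.71) or control 3 (0.48), and with total counts only (0.59).

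Btg2 encodes an antiproliferative protein that recruits the CCR4-NOT deadenylase complex to transcripts and is induced by p53 and by growth and differentiation signals. It was at 25.3, 16.1 and 15.5 CPM in control 1, 2 and 3 and at 44.2, 32.3 and 27.2 CPM in mutant 1, 2 and 3. Every mutant library was above every control, with control 1 and mutant 3 the nearest pair. The means were 18.9 ± 5.48 and 34.6 ± 8.70 CPM (SD, n = 3 each), and the log2 fold change was 0.87 ± 0.25 (SE, adjusted p = 0.676, edgeR). Btg2 was the only member called in all 13 alternatives, at log2 fold changes of 0.69 to 1.15. Its adjusted p over those alternatives ran from 0.0333, without the filter on low counts, to 0.999.

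**Figure D2:**
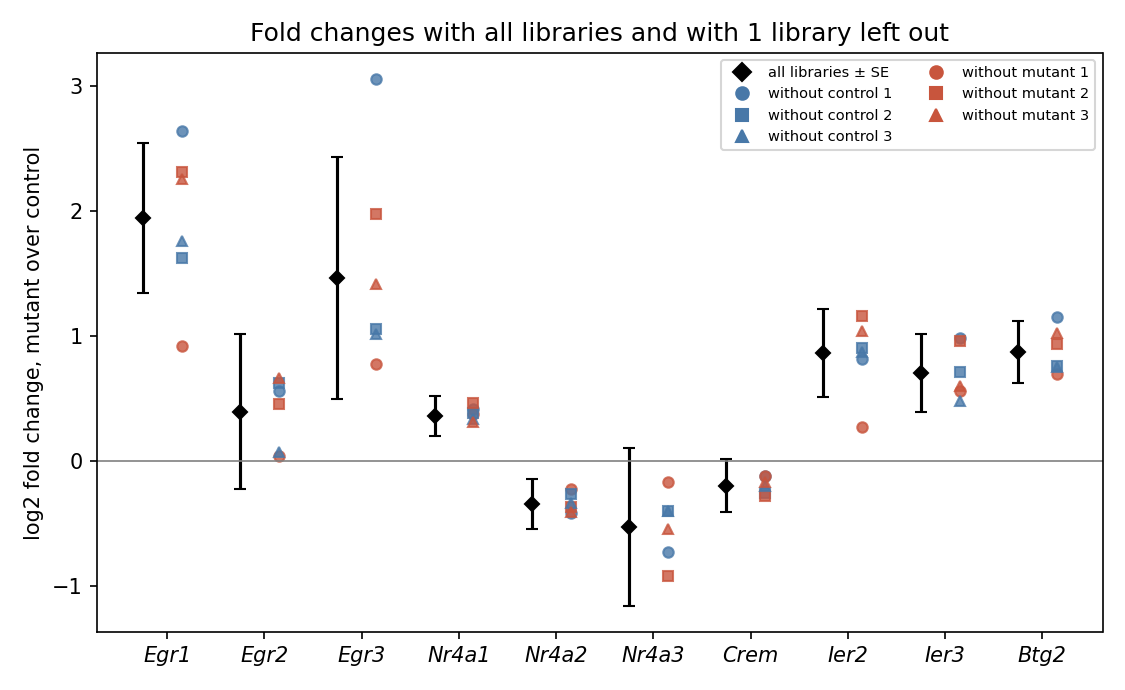
Log2 fold change of mutant over control for each early gene, with all 6 libraries (black, bars are 1 SE) and with 1 library left out (coloured, shape and colour marking the library). Egr1 and Ier2 come down to 0.92 and 0.27 without mutant 1, Egr3 goes up to 3.05 without control 1, and every point of a gene lies on the side of 0 of its black point.

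Mutant 1 set the extreme of the series for most members. It held the highest value of the 6 libraries for Egr1, Egr2, Egr3, Ier2, Ier3 and Btg2, the next to highest for Nr4a1, and the lowest for Nr4a2, Nr4a3 and Crem. Averaged over the members, the centred log2 CPM was 0.06, -0.32 and -0.49 in control 1, 2 and 3 and 0.63, -0.07 and 0.17 in mutant 1, 2 and 3, so control 1 lay above mutant 2 and the groups overlapped. Without mutant 1, 1 member passed the unadjusted threshold, Btg2. Without control 2 or without control 3 there were 2, without mutant 3 there were 3, without control 1 there were 4 and without mutant 2 there were 5. Over all genes tested, 817 were called in either direction without mutant 1, 929 without control 2, 618 without control 3, 874 without mutant 3, 2427 without control 1 and 1669 without mutant 2.

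Markers of other cell types also varied between libraries, not always in the order of the early genes. The 8 neuron and glia markers summed to 225, 1656 and 579 CPM in control 1, 2 and 3 and to 3590, 2492 and 921 CPM in mutant 1, 2 and 3, with Gfap, an astrocyte filament gene, higher at a log2 fold change of 1.93 (adjusted p = 0.676, edgeR) and 1 marker at 0 in every library. Of 7 tested, 2 were called higher. The 8 neutrophil markers summed to 16.2 to 59.3 CPM in control and to 153, 54.3 and 32.7 CPM in mutant 1, 2 and 3, with 2 of 8 called higher, among them Mpo, the granule enzyme myeloperoxidase (2.15, adjusted p = 0.534). The macrophage list was highest in mutant 1, at 120 CPM against 49.7 to 69.9 in the other libraries, with 1 of 6 called. The 8 skeletal muscle markers summed to 4074, 100 and 70.6 CPM in control 1, 2 and 3 and to 154, 156 and 138 CPM in mutant 1, 2 and 3. All 8 were called lower in mutants by edgeR in the main design, but 0 were with a block on the replicate number or by limma-voom with quality weights. By DESeq2 1 of them was tested, and it was called lower. In these sums every mutant library lay above control 2 and control 3. Without control 1, 6 of 8 had a positive fold change, with 3 called higher and 0 lower in edgeR. The part of neural, blood cell or muscle RNA in the early gene differences was not tested, and in whole tissue fewer cells of a type and less RNA per cell cannot be told apart.

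The annulus and tendon list was at 6763 to 16889 CPM in control and 15305 to 25262 CPM in mutant libraries, with 3 of 6 genes higher. Of the osteoblast markers 2 of 6 were higher and 1 lower, and of the red cell precursor markers 1 of 7 was higher. Among cartilage markers 1 of 8 was lower, and 0 of 7 nucleus pulposus and 0 of 6 endothelial markers passed an unadjusted p of 0.05 in edgeR.

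**Figure D3:**
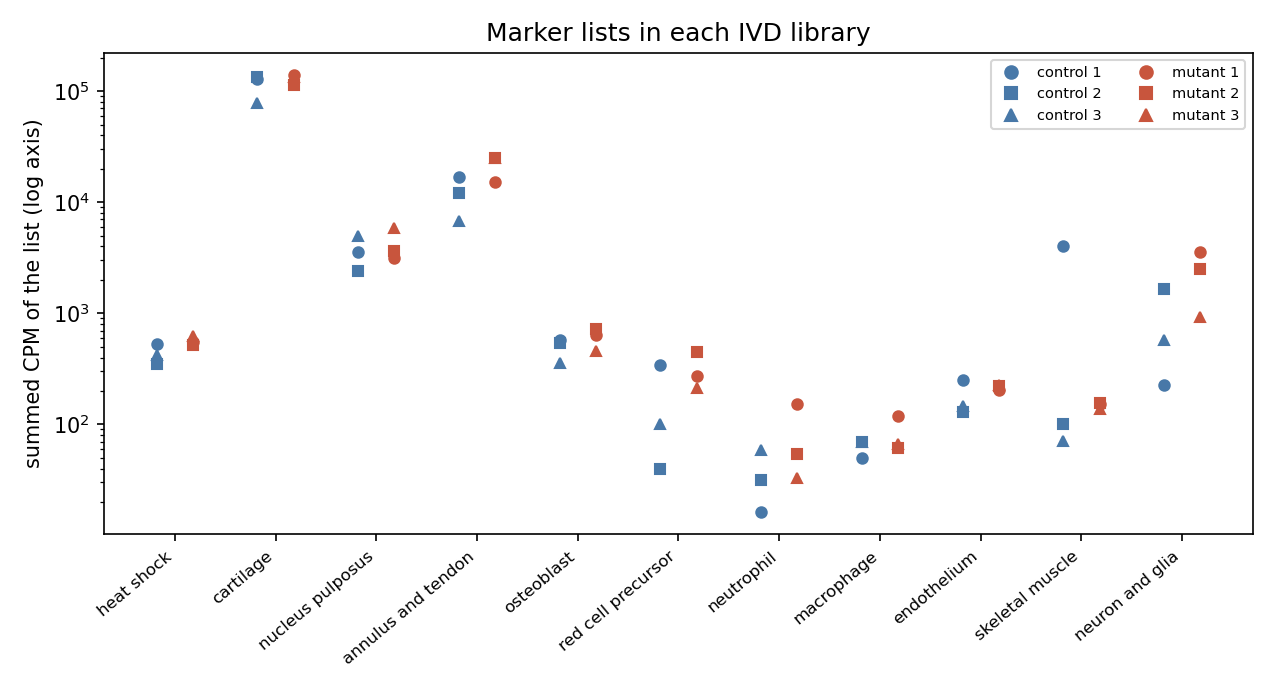
Summed CPM (log axis) of each marker list and of the heat shock genes in the 6 libraries, control left and mutant right, with shape marking the replicate number. Control 1 stands apart for skeletal muscle at 4074 CPM, and mutant 1 is highest for the neuron and glia (3590 CPM), neutrophil (153 CPM) and macrophage (120 CPM) lists.

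The PKA and CREB arm, the kinase subunits, CREB family factors and coactivators that carry the cAMP signal to CREs, was called in 1 of 13 genes. That gene was Ep300, a histone acetyltransferase and coactivator of CREB among many factors, at 23.5, 19.5 and 24.2 CPM in control and 37.0, 25.3 and 38.7 CPM in mutant libraries. All mutant libraries lay above all controls, at a log2 fold change of 0.58 ± 0.20 (SE, adjusted p = 0.676, edgeR), and the call was lost without control 2 (0.48) or mutant 3 (0.47) and with total counts only (0.45). The list had 10 positive fold changes and a median of 0.15, and Creb1 itself was at -0.19 ± 0.17 (SE, adjusted p = 0.826). Over the alternatives 0 to 2 genes of the arm were called higher in edgeR, the other being Crtc1 (0.57) without mutant 2. Prkar2b, a regulatory subunit of PKA, was at -0.51 ± 0.27 (SE, adjusted p = 0.725) and was called lower with total counts only (-0.65), without mutant 1 (-0.74) and with both libraries numbered 1 left out (-0.73), so that with total counts only the arm had 0 genes higher and 1 lower. Crtc1 and Prkar2b were named after their values were seen.

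The SRF arm, SRF with its ETS and myocardin-related partners, had 0 of 6 genes past an unadjusted p of 0.05 in edgeR and a median log2 fold change of 0.30, with 5 positive. The most abundant of these, the ETS factors Elk3 and Elk4, were at 0.35 ± 0.25 (SE, adjusted p = 0.785) and 0.24 ± 0.18 (SE, adjusted p = 0.794). In 3 alternatives 1 gene of the arm was called higher, Elk3 without mutant 1 (0.57) and with both libraries numbered 1 left out (0.76), and Srf, named after its values were seen, without mutant 2 (0.61).

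Among 18 other genes known to respond to cAMP, 17 were tested, with 7 called higher and 1 lower at an unadjusted p under 0.05 in edgeR and a median of 0.31. The AP-1 genes Fosb, Fos and Junb made up 3 of the 7. Fosb was at 14.3, 9.55 and 11.4 CPM in control 1, 2 and 3 and at 143, 36.3 and 14.1 CPM in mutant 1, 2 and 3, so that mutant 3 lay within the control range (log2 fold change 2.45 ± 0.66, adjusted p = 0.629). Fos was at 48.1, 14.8 and 28.5 CPM in control and at 236, 69.0 and 47.8 CPM in mutant libraries, with mutant 3 just below control 1 (1.95 ± 0.58, adjusted p = 0.676). Without mutant 1 these were 1.14 for Fosb and 0.97 for Fos, both still called, while Junb went from 1.27, called, to 0.21, not called. By limma-voom Fosb was at 1.61 and not called. The Junb call was also lost by DESeq2 (1.27) and limma-voom (0.83), with a block on the replicate number (0.86), without control 2 (1.24) or control 3 (1.31), and with both libraries numbered 1 left out (0.19).

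Atf3, a stress-induced CREB family repressor, was at 13.9, 12.3 and 12.3 CPM in control 1, 2 and 3 and 21.1, 27.2 and 17.0 CPM in mutant 1, 2 and 3. Every mutant library was above every control, mutant 2 and not mutant 1 was the highest, and the log2 fold change was 0.76 ± 0.22 (SE, adjusted p = 0.676, edgeR) and 0.82 without mutant 1. The clock gene Per1 (1.0), the MAP kinase phosphatase Dusp1 (0.54) and the kinase Sgk1 (0.49) were the other genes called higher. Without mutant 1, Per1 (0.65) and Dusp1 (0.49) were not called and Sgk1 (0.47) was, and without control 2 none of the 3 was (0.94, 0.43 and 0.39 in that order). Per1 was also lost without control 3 (0.76), and Dusp1 and Sgk1 without mutant 3 (0.52 and 0.42) and with total counts only (0.42 and 0.37). Per1, Dusp1, Sgk1 and Junb were named after their values were seen. The gene called lower was Ppargc1a, a coactivator of mitochondrial genes and a classic CREB target, at 1.61, 2.55 and 4.14 CPM in control and 0.228, 0.653 and 1.17 CPM in mutant libraries, without overlap. Its log2 fold change was -2.0 ± 0.70 (SE, adjusted p = 0.676), and the call was lost without mutant 1 (-1.57), mutant 2 (-1.95) or control 3 (-1.57). Over the alternatives 3 to 8 genes of the list were called higher, with 4 higher and 0 lower in edgeR without mutant 1 and 3 higher without control 2.

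**Figure D4:**
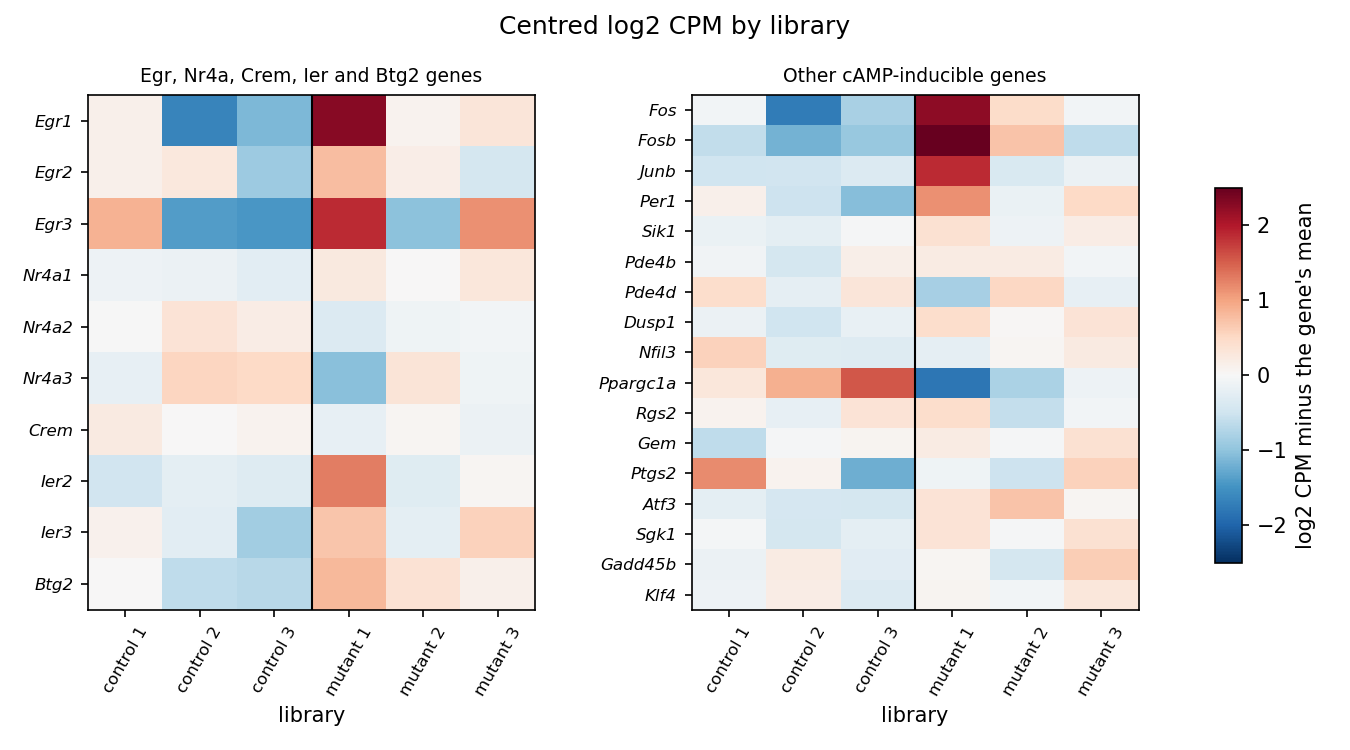
Log2 CPM of each gene in each library minus the gene's mean over the 6 libraries, for the 10 members (left) and the 17 tested cAMP-inducible genes outside them (right); the black line parts control from mutant libraries and red is above the mean. The mutant 1 column is the reddest for Egr1, Egr3, Ier2, Fos, Fosb and Junb, and is blue for genes that include Nr4a2, Nr4a3, Crem and Ppargc1a.

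Relatives and partners of the members, such as the Nab corepressors of the Egr factors, the Rxr partners of the Nr4a receptors, and the Ier5, Btg and Tob genes, were called higher in 2 of 11 tested, with a median of 0.25, while 2 of the 13 listed did not pass the filter. Tob1, an antiproliferative relative of Btg2, was at 26.3, 23.8 and 21.2 CPM in control and at 43.7, 29.1 and 33.4 CPM in mutant libraries. The groups did not overlap, and the log2 fold change was 0.57 ± 0.20 (SE, adjusted p = 0.676, edgeR) and 0.43, not called, without mutant 1. Rxrg was at 1.39, 1.67 and 2.27 CPM in control and 3.76, 4.49 and 4.46 CPM in mutant libraries, also without overlap, at 1.24 ± 0.46 (SE, adjusted p = 0.676). The call on Rxrg was lost without control 2 (1.19), mutant 2 (1.22) or mutant 3 (1.21), and with both libraries numbered 1 left out (1.22). The closer relatives Btg1 and Btg3 were at -0.03 (adjusted p = 0.977) and 0.25 (adjusted p = 0.836), and Nab2, itself a target of Egr1, was at 0.31 ± 0.23 (SE, adjusted p = 0.790) and was called without mutant 2 (0.53). Creb1, Btg1, Btg3 and Nab2 are named by choice after their values were seen. Over the alternatives 1 to 4 genes of this list were called higher, with 4 called without mutant 2.

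Heat shock genes, which respond to protein stress, were listed beside the early genes, and 3 of 8 were called higher, with a median of 0.38. The inducible chaperones Hspa1a and Hspa1b were at log2 fold changes of 0.97 and 1.30 (adjusted p = 0.676 for both, edgeR) and the small chaperone Hspb1 at 0.69 (adjusted p = 0.691). Hspa1b was at 20.0, 3.66 and 5.78 CPM in control 1, 2 and 3 and at 22.0, 23.3 and 26.9 CPM in mutant 1, 2 and 3, so control 1 lay near the mutant libraries and mutant 1 was not the highest. Hspa1a and Hspa1b are near-identical copies whose reads the count may split or drop. All 3 calls were lost without control 2 (0.69, 0.91 and 0.47 in that order), control 3 (0.83, 1.03 and 0.76) or mutant 3 (0.83, 1.22 and 0.40), and Hspb1 also without mutant 1 (0.73) and with total counts only (0.56). Without control 1, by contrast, 6 of the 8 genes were called higher, with Hspa1a at 1.57, Hspa1b at 2.35 and Hspb1 at 0.91.

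Genes outside the members were ranked by how closely their log2 CPM followed the members' mean centred log2 CPM over the 6 libraries, among 9958 genes with a mean of at least 10 CPM. The closest were Klc1 (r = 0.997), Rab7 (0.995), Syt2 (0.994), Trak1 (0.994), Gnb1 (0.993) and Cldn25 (0.991). These values describe 6 libraries that share depth and scaling. Their amplitude was small, as the highest library was 1.35 times the lowest for Klc1 and 1.86 times for Syt2, and their log2 fold changes ran from 0.18 to 0.46, with Syt2 (0.46) and Trak1 (0.44) called.

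Positions of the members are given on GRCm38 from GENCODE M21. Btg2 spans chr1:134075170-134079120, Nr4a2 chr2:57106830-57124003 and Nr4a3 chr4:48045153-48086447. Ier2 spans chr8:84661331-84662852, Egr2 chr10:67535475-67542188 and Egr3 chr14:70077203-70082614. Nr4a1 spans chr15:101254269-101274795 and Ier3 chr17:35821684-35822923. Egr1, at chr18:34859823-34864984, and Crem, at chr18:3266048-3337748, were the only members on the same chromosome. All are annotated as protein coding and, apart from Crem with Gm6225, none overlaps another annotated gene.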

How the data were processed

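Poly(A) RNA of pulverised IVDs was sequenced in 6 libraries, 3 mutant and 3 control. The authors deposited raw read counts per gene symbol, 1 file per library, without normalization. The methods name Cutadapt, FastQC and HISAT2 with GRCm38.88, while the submitters' processing notes list STAR 2.5.3a, HTSeq and DESeq2 with mm10, so the aligner behind the counts is not settled, and the strand setting is not given in the sources used here. Such differences can move counts where genes overlap or are near copies. The authors' comparison table (scaled counts, fold changes and p-values) was not used, and the Ballgown test on FPKM named in the methods could not be run on counts. Lines of the count files that name no gene stayed out of library sizes: reads assigned to no counted feature were 39.4% to 43.3% of those entering the count, ambiguous reads 0.846% to 1.05% and reads not aligned 12.0% to 18.9%.

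Mutant and control libraries were compared in R 4.3.3 with the quasi-likelihood test of edgeR 4.0.16, after TMM and filterByExpr (count minimum 10), without covariates and with Benjamini-Hochberg adjustment over 16152 genes. SE is the size of the log2 fold change over the square root of F. Alternatives were RLE size factors, total counts only, no filter, a block on the replicate number, DESeq2 1.42.0, limma-voom (limma 3.58.1) with quality weights, each library left out and, chosen after seeing the data, both libraries numbered 1 left out. The fit was tested on simulated data. Members and gene lists were chosen with earlier results of these data known. Named were all members, the targeted gene, up to 4 genes a list with the smallest p under 0.05 (otherwise the 2 most abundant), and the 6 genes most like the members' mean. The rule was not carried through for the marker lists, of which only Gfap and Mpo are named. Other genes given were named after their values were seen. Promoter windows came from RefSeq (GRCm38.p6). Log2 CPM for likeness used a prior count of 2. Replicate pairs all differed beyond sampling noise, and p-values set the difference between genotypes against the spread between pools. Intervals cover counting error only.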

Additional observations from a re-analysis of the deposited data

How the results depend on the processing

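All 10 members kept their direction in every alternative in which they were tested (12 for Egr3, which the filter dropped with both libraries numbered 1 left out, and 13 for the others). The number past an unadjusted p of 0.05, 5 of 10, became 2 with total counts only, a scaling that moved the median of all genes from -0.01 to -0.13 and the share of higher calls from 40.1% to 19.1%, and 3 with both libraries numbered 1 left out. Leaving out 1 library gave 1 to 5 members. Over all genes, calls at an unadjusted p were 1164 in the main design, 2276 without the filter on low counts (26418 tested) and 2198 with both libraries numbered 1 left out, and 618 to 2427 with 1 library left out. Adjusted calls, 1 in the main design, were 245 without the filter (members 2, Egr1 and Btg2), 58 by DESeq2 (members 0), 24 with both libraries numbered 1 left out (members 1, Egr1), 0 by limma-voom (1476 at an unadjusted p) and 0 to 31 with 1 library left out. The cause was not tested. With the replicate block in edgeR, 3 members passed the unadjusted and 0 genes the adjusted threshold (1002 at an unadjusted p), Egr1 being at 1.78, and Nr4a1 (0.36), Ier2 (0.69) and, outside the members, Junb (0.86) were not called. Same-numbered libraries deviated together at r = 0.16, -0.13 and 0.10, and the control most like mutant 1, 2 and 3 was control 1, 3 and 3. The block took the SE of Egr1 from 0.60 to 0.21, while those of Nr4a1, Nr4a2 and Crem rose. Whether the numbers pair the samples is thus not settled. Depth limited Egr2, Egr3 and Nr4a3, with 3 to 43 counts a library.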

Other observations

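Ratios of 2 members within a library need no scaling between libraries. The pairs were chosen after their values were seen, so they are given as a description with no test. The ratio of Egr1 to Nr4a2 counts was 2.81, 0.638 and 1.02 in control 1, 2 and 3 and 15.9, 2.93 and 3.29 in mutant 1, 2 and 3, with control 1 just below mutant 2. The ratio of Btg2 to Nr4a2 counts was 1.57, 0.784 and 0.835 in control and 3.50, 2.16 and 1.75 in mutant libraries. In both, every mutant library lay above every control, and mutant 1 was the highest. For Btg2 over Nr4a2 this follows by arithmetic. Btg2 was already higher and Nr4a2 lower in every mutant library, so that ratio adds no separate evidence.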
